A study of Homo sapiens with 32 samples.

Results

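The 46 genes described here encode lysosomal enzymes, the small proteins that help those enzymes, proteins of the lysosomal membrane, subunits of the vacuolar proton pump and the transcription factor TFEB. They were chosen by name for these roles and not by a rule on measured values, but with earlier results of these data known. All 46 were found among the 22610 genes of the table. mRNA was sequenced in SK-N-BE(2), an established human neuroblastoma line, after 20 µM cannabidiol (CBD, a non-intoxicating compound of the cannabis plant) dissolved in ethanol, or after vehicle, which was 0.1% ethanol. Cells were treated for 3, 6, 12 or 24 h on the morning after plating, with 4 wells for each treatment and time, giving 8 groups and 32 samples. No untreated wells were analysed here, and every sample came from the same cell line, so the values describe 1 line at 1 dose. The study followed the time course of the response of transcripts to CBD, and the comparisons below are CBD against vehicle at each time and vehicle at 24 h against vehicle at 3 h.

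The lysosome is the compartment in which cells break down proteins, lipids, glycans and glycogen. Its soluble hydrolases work at acidic pH, which the vacuolar proton pump maintains by coupling ATP hydrolysis in its cytosolic V1 sector to the movement of protons through its membrane V0 sector. TFEB binds short E-box sequences near the start of many lysosomal genes and is held in the cytosol while the kinase mTORC1 is active on the lysosomal surface, and inherited loss of single hydrolases causes the lysosomal storage diseases, several of which damage neurons.

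Values are FPKM, the number of sequenced fragments scaled to the length of the transcript and to the size of the library, a level that can be compared between genes because it is per length. A difference is given as a log2 fold change, here the difference between 2 group means of log2(FPKM + 1), with its standard error (SE). A gene was said to have risen or fallen when the adjusted p of a moderated, two-sided limma test was under 0.01 over all 12621 genes with a mean of at least 1 FPKM. Of the 46 members, 44 passed this filter. The other 2 were CTSZ, a cysteine cathepsin, with group means of 0.0766 to 0.139 FPKM, and FUCA1, the lysosomal fucosidase, with group means of 0.656 to 0.937 FPKM. Of the 44, 28 were hydrolases, helpers or membrane proteins, 15 were pump subunits and 1 was TFEB. Their levels in vehicle at 3 h ran from 1.60 ± 0.158 FPKM for ARSA to 147 ± 8.13 FPKM for CD63 (mean ± SD, n = 4). The wells are replicates of a single line, so p-values measure the spread between these wells, and fewer cells of a type and less RNA per cell cannot be told apart in bulk RNA.

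No library stood apart from its group, the lowest correlation of a library with the other 3 of its group being 0.965. Counts of reads were not analysed here, but relative depth, read from the smallest values in the table, ranged from 0.787 in a CBD library at 12 h to 1.20 in a vehicle library at 24 h. The median relative depth was lower with CBD than with vehicle at 3 h (0.925 against 1.05), 6 h (0.962 against 1.05) and 12 h (0.925 against 1.00), and was 0.999 against 1.02 at 24 h. All 8 adrenergic neuroblastoma markers were detected, with a summed level of 2977 to 3801 FPKM per sample, while the 5 macrophage markers summed to 0.303 to 0.617 FPKM, with AIF1 and ITGAM at 0 in 29 samples each and PTPRC at 0 in 8. The summed level of 5 fibroblast markers, most of it LUM, was 54.0 to 77.4 FPKM, and that of 5 epithelial markers was 2.42 to 5.06 FPKM. The neuroblastoma markers moved with treatment too: at 24 h DBH, the enzyme that makes noradrenaline, fell by 1.496 and CHGA fell by 0.93 on the log2 scale while MYCN rose by 0.54. Among the fibroblast markers LUM rose by 0.13 (adjusted p = 0.00378) and DCN fell by 0.39 (adjusted p = 1.78e-09) with CBD at 24 h, with sums of 59.2 to 64.7 FPKM against 54.0 to 61.5 FPKM in vehicle, and the epithelial marker EPCAM rose by 0.28 (adjusted p = 0.00144). In vehicle from 3 to 24 h LUM fell by 0.41, DCN fell by 0.13, COL1A1 rose by 0.46 and EPCAM rose by 0.63. The part of these shifts in the results below was not tested.

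Short promoter windows are shown because lysosomal genes are known for the E-box to which TFEB binds. RefSeq promoters on GRCh38.p14, each of 300 bases around a start site, were matched for 34 of the 46 members, and the palindromic word TCACGTGA, which reads the same on both strands, was in 7 of them (20.6%). It was in 0.98% of all 35116 promoters of this length, or in 1.18% of genes when each of 27305 genes was counted once. The shorter word CACGTG, which lies inside it, was in 12 of the 34 (35.3%), in 7.26% of all promoters and in 8.77% of genes. A match describes the letters in the window and does not show that a factor binds there. The 7 genes were ATP6V0D1, ATP6V1G1, CLN3, CTSA, GAA, LAMP1 and MCOLN1. For 5 of them 1 window of 28 bases is given 5′ to 3′ on the gene's strand, with TCACGTGA in capitals. They are GAA at chr17:80101494-80101521 (plus strand), LAMP1 at chr13:113297200-113297227 (plus strand), CTSA at chr20:45891299-45891326 (plus strand), ATP6V0D1 at chr16:67481200-67481227 (minus strand) and ATP6V1G1 at chr9:114587700-114587727 (plus strand). The word begins 77, 29, 26, 60 and 59 bases before the start site in that order.
GAA: ggaggccgcgTCACGTGAcccaccgcgg
LAMP1: acccgcgggaTCACGTGAcgcccgggcg
CTSA: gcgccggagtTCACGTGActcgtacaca
ATP6V0D1: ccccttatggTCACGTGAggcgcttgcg
ATP6V1G1: cgctgtgcggTCACGTGAcaacgggggc

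Across time, few lysosomal genes responded to CBD at 3 and 6 h and more at 12 and 24 h, in both directions. The share of all tested genes that passed grew as well, from 2.46% at 3 h to 42.1% at 24 h. At 3 h 0 of the 44 members passed the limma test, with 10 at an unadjusted p under 0.05, where 2.46% of all tested genes passed. At 6 h 5 members passed (10.2% of all genes), 1 higher (4.07% of all genes were higher) and 4 lower (6.13% were lower). At 12 h 11 passed, which is 25% of the members against 20.1% of all genes, with 2 higher (8.85% of all genes) and 9 lower (11.2%). At 24 h 18 passed, or 40.9% of the members against 42.1% of all genes, with 9 higher (20.8% of all genes) and 9 lower (21.3%). The share of members that passed at 24 h was therefore near that of all genes.

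The split by role ran as follows. Of the 28 hydrolases, helpers and membrane proteins, 7 rose and 4 fell at 24 h, and their median log2 fold change was 0.059. These 11 were 39.3% of the 28, where 42.1% of all tested genes passed, 20.8% higher and 21.3% lower. Of the 15 pump subunits, 1 rose and 5 fell (40% passed). These counts were 0 and 5 under median-ratio scaling and 0 and 4 on the 24 h samples alone. They were 1 and 4 under quantile normalization, with no filter and after adding relative depth to the model. With any 1 sample left out, 4 or 5 pump subunits passed. The pump median was -0.045, while the median of all tested genes was -0.0032. The difference between these medians was not tested. At 12 h 1 rose and 6 fell among the 28 (median -0.018), and 1 rose and 3 fell among the 15 pump subunits (median -0.052). Of all tested genes 8.85% rose and 11.2% fell then. The count of 7 was 4 in a fit on the 12 h samples alone, and the pump count of 4 was 2 in that fit, after adding relative depth to the model, and without vehicle replicate 1 or CBD replicate 1 or 3. The count of 5 at 6 h was 3 with no filter or without vehicle replicate 1, 3 or 4 or CBD replicate 1 or 3, and 2 in a fit on the 6 h samples alone. At 6 h the 5 members that passed were all hydrolases or membrane proteins (17.9% of the 28, against 10.2% of all tested genes). No pump subunit passed the limma test then, with 3 at an unadjusted p under 0.05. There 1 passed under quantile normalization and 2 without CBD replicate 4. At 24 h the 4 CBD values lay wholly above or below the 4 vehicle values for 22 of the 44 members, 5 of them pump subunits, where 51.0% of all tested genes separated in this way.

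**Figure D1:**
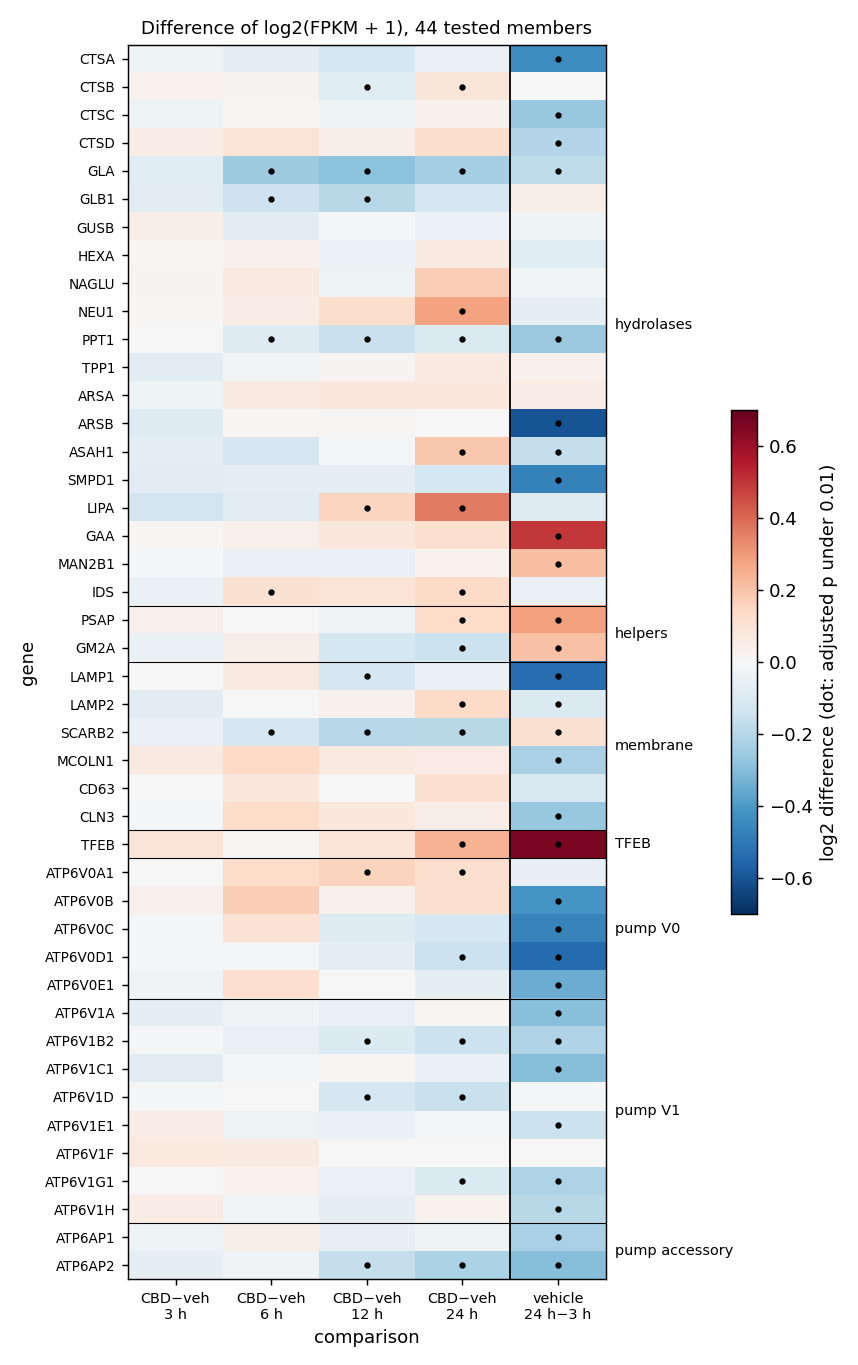
Colour gives the difference of mean log2(FPKM + 1) for the 44 tested members (vertical axis, grouped by role) in 5 comparisons (horizontal axis), CBD minus vehicle at 3, 6, 12 and 24 h and vehicle at 24 h minus vehicle at 3 h, and a dot marks an adjusted p under 0.01. The dots number 0, 5, 11, 18 and 30 from left to right, and 12 of the 15 pump subunits are lower in the last column.

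LIPA, NEU1, ASAH1 and IDS had the largest rises among the enzymes that passed the test. LIPA, lysosomal acid lipase (hg19, chr10:90973326-91174314, minus strand), splits cholesteryl esters and triglycerides that arrive with lipoproteins, and its level at 24 h was 19.6 ± 0.540 FPKM with CBD and 15.02 ± 0.390 FPKM with vehicle (mean ± SD, n = 4). LIPA at 3 h was 16.2, 16.2, 16.8 and 14.9 FPKM in the vehicle samples and 14.7, 14.7, 14.5 and 14.4 FPKM in the CBD samples. LIPA at 6 h was 15.3, 16.5, 15.6 and 15.9 FPKM in the vehicle samples and 15.6, 15.2, 14.8 and 14.1 FPKM in the CBD samples. Every CBD sample was below every vehicle sample at 3 h, and the groups overlapped at 6 h. LIPA at 12 h was 16.8, 15.1, 15.7 and 15.5 FPKM in the vehicle samples and 17.3, 17.8, 18.3 and 17.2 FPKM in the CBD samples. LIPA at 24 h was 14.7, 15.1, 14.8 and 15.6 FPKM in the vehicle samples and 20.2, 19.7, 19.7 and 18.9 FPKM in the CBD samples. All 4 CBD samples were above all 4 vehicle samples at both later times. The log2 fold change was -0.13 at 3 h (adjusted p = 0.0222), -0.081 at 6 h (adjusted p = 0.0946), 0.15 at 12 h (adjusted p = 0.00113) and 0.36 at 24 h (SE 0.0339, adjusted p = 1.19e-09). Only the 2 later differences passed the test, and that at 12 h did not in a fit on the 12 h samples alone (adjusted p = 0.0172). The effect of CBD at 24 h was higher than that at 3 h by 0.49 (SE 0.0479, adjusted p = 8.48e-09).

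NEU1, the lysosomal sialidase (hg19, chr6:31825436-31830682, minus strand), removes sialic acid from glycoproteins and glycolipids. NEU1 at 3 h was 12.2, 12.4, 11.6 and 10.9 FPKM in the vehicle samples and 13.05, 11.4, 11.7 and 11.3 FPKM in the CBD samples. NEU1 at 6 h was 11.8, 12.5, 11.8 and 12.3 FPKM in the vehicle samples and 12.9, 13.3, 12.7 and 11.4 FPKM in the CBD samples. The groups overlapped at both times. NEU1 at 12 h was 11.8, 11.8, 12.5 and 11.7 FPKM in the vehicle samples and 13.3, 13.8, 12.8 and 12.5 FPKM in the CBD samples. NEU1 at 24 h was 11.3, 11.3, 11.1 and 10.98 FPKM in the vehicle samples and 13.7, 13.4, 14.2 and 13.9 FPKM in the CBD samples. The groups met at 12 h. At 24 h the lowest CBD sample was above the highest vehicle sample, and the log2 fold change was 0.28 (SE 0.042, adjusted p = 3.29e-06), after 0.12 at 12 h (adjusted p = 0.0255).

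ASAH1, acid ceramidase (hg19, chr8:17913501-17942507, minus strand), cuts ceramide into sphingosine and a fatty acid. ASAH1 at 3 h was 23.2, 23.96, 23.2 and 23.8 FPKM in the vehicle samples and 20.5, 22.03, 23.2 and 23.9 FPKM in the CBD samples. ASAH1 at 6 h was 22.8, 22.2, 23.8 and 22.95 FPKM in the vehicle samples and 20.8, 20.7, 20.8 and 22.1 FPKM in the CBD samples. The CBD samples overlapped vehicle at 3 h and lay below it at 6 h, where the log2 fold change of -0.12 missed the threshold (adjusted p = 0.0144). ASAH1 at 12 h was 24.2, 23.3, 24.2 and 23.1 FPKM in the vehicle samples and 23.9, 23.3, 23.2 and 23.8 FPKM in the CBD samples. ASAH1 at 24 h was 20.2, 21.4, 20.9 and 20.8 FPKM in the vehicle samples and 23.6, 25.1, 23.1 and 23.8 FPKM in the CBD samples. The CBD samples were all higher at 24 h, by 0.19 on the log2 scale (SE 0.0331, adjusted p = 2.72e-05). Vehicle fell by 0.17 between 3 and 24 h (adjusted p = 7.24e-05), and the CBD mean at 24 h was 23.9 ± 0.823 FPKM beside a vehicle mean of 23.5 ± 0.422 FPKM at 3 h (± SD, n = 4).

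IDS, iduronate 2-sulfatase (hg19, chrX:148558519-148602635, minus strand), acts on dermatan and heparan sulfate. Its assignment is uncertain, since 76.3% of the 50-base words of its transcripts also occur in other annotated genes, most of them in an overlapping gene on the same strand. IDS at 3 h was 41.9, 42.7, 40.8 and 40.9 FPKM in the vehicle samples and 42.9, 40.3, 39.1 and 38.7 FPKM in the CBD samples. IDS at 6 h was 38.1, 40.03, 39.2 and 39.00 FPKM in the vehicle samples and 42.1, 42.7, 43.99 and 40.02 FPKM in the CBD samples. The 6 h groups overlapped. The difference at 6 h was 0.11 (adjusted p = 0.00966), a call that was lost when any of vehicle replicates 1, 3 and 4 or CBD replicates 1, 2 and 3 was left out (adjusted p = 0.0218 to 0.051). IDS at 12 h was 40.2, 38.9, 39.01 and 39.2 FPKM in the vehicle samples and 39.9, 43.8, 42.1 and 42.8 FPKM in the CBD samples. IDS at 24 h was 39.7, 40.6, 40.4 and 39.9 FPKM in the vehicle samples and 44.96, 44.3, 43.5 and 43.997 FPKM in the CBD samples. All CBD samples were above vehicle at 24 h, where the log2 fold change was 0.13 (SE 0.0289, adjusted p = 0.00031).

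GLA, SCARB2, GLB1 and PPT1 had the largest falls among the enzymes and membrane proteins that passed the test. Each of them passed at 6 h, but the 6 h calls of GLB1 and PPT1 were lost under some alternatives. GLA, alpha-galactosidase A (hg19, chrX:100648261-100663000, minus strand), removes terminal galactose from glycolipids and is the enzyme lacking in Fabry disease. GLA at 3 h was 16.9, 15.8, 15.4 and 14.98 FPKM in the vehicle samples and 14.97, 15.6, 14.9 and 13.8 FPKM in the CBD samples. GLA at 6 h was 15.5, 15.6, 14.8 and 14.9 FPKM in the vehicle samples and 12.7, 12.9, 12.6 and 12.4 FPKM in the CBD samples. The groups overlapped at 3 h, and at 6 h every CBD sample was below every vehicle sample. GLA at 12 h was 15.96, 14.9, 16.1 and 14.8 FPKM in the vehicle samples and 12.6, 12.9, 12.3 and 12.1 FPKM in the CBD samples. GLA at 24 h was 13.2, 13.5, 13.8 and 14.6 FPKM in the vehicle samples and 11.5, 11.6, 11.8 and 11.5 FPKM in the CBD samples. The separation held at 12 and 24 h. The log2 fold change was -0.25 at 6 h (adjusted p = 8.93e-06), -0.29 at 12 h (adjusted p = 5.3e-07) and -0.23 at 24 h (adjusted p = 3.7e-06), each with an SE of 0.0351. All 3 calls held under every alternative that was run.

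SCARB2, also called LIMP-2 (hg19, chr4:77079890-77155689, minus strand), is one of the abundant proteins of the lysosomal membrane. SCARB2 at 3 h was 35.5, 35.3, 35.1 and 35.1 FPKM in the vehicle samples and 33.5, 35.1, 34.4 and 33.5 FPKM in the CBD samples. SCARB2 at 6 h was 33.8, 33.8, 33.96 and 34.5 FPKM in the vehicle samples and 31.9, 31.1, 31.01 and 31.3 FPKM in the CBD samples. CBD samples were below vehicle at 6 h without overlap. SCARB2 at 12 h was 36.9, 36.04, 35.8 and 35.1 FPKM in the vehicle samples and 29.8, 32.1, 30.9 and 31.9 FPKM in the CBD samples. SCARB2 at 24 h was 37.4, 37.98, 38.6 and 37.98 FPKM in the vehicle samples and 33.2, 33.99, 32.2 and 33.1 FPKM in the CBD samples. The groups stayed apart at the later times, with log2 fold changes of -0.12 at 6 h (adjusted p = 0.000175), -0.20 at 12 h (adjusted p = 1.77e-08) and -0.19 at 24 h (adjusted p = 9.69e-09). SCARB2 rose with time in vehicle, by 0.11 from 3 to 24 h (adjusted p = 4.82e-05), while its CBD mean was 34.1 ± 0.769 FPKM at 3 h and 33.1 ± 0.750 FPKM at 24 h (± SD, n = 4).

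GLB1, lysosomal beta-galactosidase (hg19, chr3:33038101-33138694, minus strand), was the least abundant of the 4. GLB1 at 3 h was 8.26, 7.80, 8.25 and 7.69 FPKM in the vehicle samples and 7.88, 7.32, 7.63 and 7.38 FPKM in the CBD samples. GLB1 at 6 h was 8.09, 8.33, 7.92 and 8.55 FPKM in the vehicle samples and 7.27, 7.84, 6.98 and 7.24 FPKM in the CBD samples. All CBD samples were below vehicle at 6 h. The difference of -0.15 (adjusted p = 0.00959) lay at the threshold and was lost without any 1 of the samples compared other than CBD replicate 2 (adjusted p = 0.0104 to 0.0445). It was also lost with no filter (0.0168), under median-ratio scaling (adjusted p = 0.0123) and quantile normalization (0.0159), on the 6 h samples alone (0.0438) and after adding relative depth (0.0158). GLB1 at 12 h was 8.95, 8.90, 8.84 and 8.58 FPKM in the vehicle samples and 7.85, 7.51, 7.75 and 7.22 FPKM in the CBD samples. GLB1 at 24 h was 8.01, 8.41, 8.04 and 8.66 FPKM in the vehicle samples and 7.53, 8.30, 7.59 and 6.81 FPKM in the CBD samples. The groups were apart at 12 h, where the log2 fold change was -0.19 (adjusted p = 0.000426), and overlapped at 24 h (-0.12, adjusted p = 0.0132).

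PPT1, palmitoyl-protein thioesterase 1 (hg19, chr1:40538382-40562932, minus strand), strips fatty acids from proteins and is the enzyme lacking in infantile neuronal ceroid lipofuscinosis. PPT1 at 3 h was 54.6, 50.7, 53.2 and 52.2 FPKM in the vehicle samples and 53.2, 53.1, 51.9 and 51.9 FPKM in the CBD samples. PPT1 at 6 h was 50.9, 50.9, 50.3 and 49.96 FPKM in the vehicle samples and 48.1, 48.3, 47.4 and 46.1 FPKM in the CBD samples. CBD and vehicle overlapped at 3 h but not at 6 h. PPT1 at 12 h was 50.4, 48.8, 48.5 and 47.4 FPKM in the vehicle samples and 43.2, 44.2, 44.1 and 42.98 FPKM in the CBD samples. PPT1 at 24 h was 43.2, 43.3, 44.4 and 44.1 FPKM in the vehicle samples and 40.3, 41.01, 40.9 and 40.6 FPKM in the CBD samples. CBD was lower by 0.088 at 6 h (adjusted p = 0.00208), 0.16 at 12 h (adjusted p = 6.06e-07) and 0.10 at 24 h (adjusted p = 8.12e-05), as log2 fold changes of -0.088, -0.16 and -0.10. The 6 h call was lost in a fit on the 6 h samples alone (adjusted p = 0.0202).

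**Figure D2:**
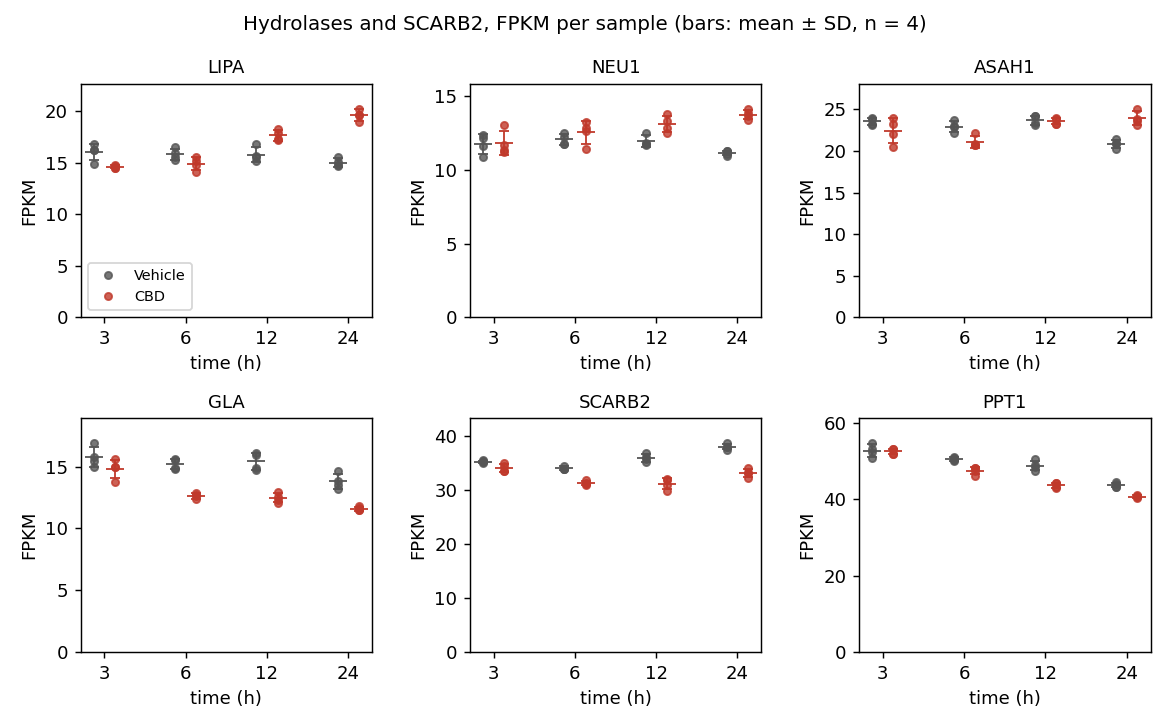
Points are FPKM (vertical axis, from 0) of single samples at 3, 6, 12 and 24 h (horizontal axis, evenly spaced) for LIPA, NEU1, ASAH1, GLA, SCARB2 and PPT1, grey for vehicle and red for CBD, with bars for the mean ± SD of 4 samples. LIPA reached 19.6 FPKM with CBD and 15.02 FPKM with vehicle at 24 h, whereas GLA was 11.6 against 13.8 FPKM.

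CTSB was the only member whose direction turned between times at which it passed. It encodes cathepsin B, a cysteine protease (hg19, chr8:11700033-11727042, minus strand). CTSB at 3 h was 32.7, 33.4, 32.3 and 30.95 FPKM in the vehicle samples and 34.1, 33.05, 32.3 and 32.4 FPKM in the CBD samples. CTSB at 6 h was 30.8, 31.3, 30.8 and 31.02 FPKM in the vehicle samples and 31.8, 32.2, 31.4 and 30.3 FPKM in the CBD samples. Vehicle and CBD samples overlapped at 3 and 6 h. CTSB at 12 h was 31.1, 30.8, 31.2 and 30.01 FPKM in the vehicle samples and 28.5, 29.5, 28.98 and 29.04 FPKM in the CBD samples. CTSB at 24 h was 31.5, 32.5, 32.5 and 33.2 FPKM in the vehicle samples and 34.3, 34.7, 34.8 and 34.2 FPKM in the CBD samples. CBD samples were all below vehicle at 12 h (-0.083, adjusted p = 0.00362) and all above it at 24 h (0.087, adjusted p = 0.00111), both small differences. The 12 h call was lost without vehicle replicate 1 or 3 or CBD replicate 1 (adjusted p = 0.0138 to 0.0168) and after adding relative depth to the model (adjusted p = 0.0169), and the 24 h call was lost under median-ratio scaling (adjusted p = 0.0199). The turn itself was not tested between 12 and 24 h.

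LAMP1, the most used marker protein of the lysosomal membrane (hg19, chr13:113951554-113977987, plus strand), has 2 copies of TCACGTGA in its promoter, 1 of which is in the window shown above. LAMP1 at 3 h was 29.7, 28.6, 27.4 and 27.9 FPKM in the vehicle samples and 30.1, 27.5, 28.3 and 27.9 FPKM in the CBD samples. LAMP1 at 6 h was 25.2, 26.7, 25.8 and 24.5 FPKM in the vehicle samples and 26.2, 27.7, 27.7 and 25.3 FPKM in the CBD samples. Neither early time separated the groups. LAMP1 at 12 h was 25.1, 23.6, 23.9 and 22.8 FPKM in the vehicle samples and 21.8, 22.03, 21.7 and 22.1 FPKM in the CBD samples. LAMP1 at 24 h was 19.05, 19.8, 18.9 and 19.6 FPKM in the vehicle samples and 19.2, 18.8, 18.6 and 18.3 FPKM in the CBD samples. CBD samples were below vehicle at 12 h only, by a log2 fold change of -0.12 (adjusted p = 0.00637), a call lost without any 1 of the samples compared other than vehicle replicate 4 (adjusted p = 0.0102 to 0.0382). The change with time was larger: vehicle fell by 0.53 on the log2 scale from 3 to 24 h (adjusted p = 1.46e-13), from 28.4 ± 0.987 to 19.3 ± 0.421 FPKM (mean ± SD, n = 4). Its relative LAMP2, which also serves chaperone-mediated autophagy, rose with CBD at 24 h by 0.13 (adjusted p = 7.24e-05), from 12.98 ± 0.172 FPKM in vehicle to 14.3 ± 0.298 FPKM.

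The 2 helpers moved in opposite directions at 24 h. PSAP, the precursor of the saposins that present sphingolipids to their hydrolases, was among the most abundant members and rose from 144 ± 2.08 FPKM in vehicle to 157 ± 4.08 FPKM with CBD (0.13, adjusted p = 0.000185). GM2A, the activator that presents GM2 ganglioside, fell from 3.25 ± 0.210 to 2.83 ± 0.167 FPKM (-0.15, adjusted p = 0.00781), a call lost without vehicle replicate 1, 2 or 4 or CBD replicate 3 or 4 (adjusted p = 0.0105 to 0.0398). Both rose with time in vehicle, PSAP by 0.29 (adjusted p = 3.82e-10) and GM2A by 0.20 (adjusted p = 0.000383), the latter lost under quantile normalization (adjusted p = 0.0914).

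The other hydrolases passed the test against CBD at no time. They were the proteases CTSA, CTSC, CTSD and TPP1, the glycosidases GUSB, HEXA, NAGLU, GAA and MAN2B1, the sulfatases ARSA and ARSB and the sphingomyelinase SMPD1. Their log2 fold changes at 24 h ran from -0.12 for SMPD1 (adjusted p = 0.0471) to 0.17 for NAGLU (adjusted p = 0.0135). Among the remaining membrane proteins the calcium channel MCOLN1 stood at 0.056, the tetraspanin CD63 at 0.11 and CLN3, the protein of juvenile neuronal ceroid lipofuscinosis, at 0.049, none of them past the test. CTSD, MAN2B1, CLN3, NAGLU and TPP1 share 23%, 18.4%, 25.2%, 10.9% and 9.42% of their 50-base words with other annotated genes, so their values are uncertain to that extent.

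The V0 sector of the proton pump was described by 5 subunits. ATP6V0A1 (hg19, chr17:40610862-40674600, plus strand) encodes the large membrane subunit a, of which a1 is the neuronal form. It was the only 1 of the 15 pump subunits that passed as higher with CBD in the main fit. ATP6V0A1 at 3 h was 26.1, 26.6, 26.2 and 25.2 FPKM in the vehicle samples and 28.6, 25.9, 24.8 and 25.3 FPKM in the CBD samples. ATP6V0A1 at 6 h was 25.8, 26.7, 25.98 and 26.2 FPKM in the vehicle samples and 28.6, 29.3, 29.9 and 26.9 FPKM in the CBD samples. The CBD samples overlapped vehicle at 3 h and were all above it at 6 h, where the difference of 0.13 missed the threshold (adjusted p = 0.013). ATP6V0A1 at 12 h was 25.6, 25.1, 24.9 and 24.8 FPKM in the vehicle samples and 27.3, 29.2, 27.9 and 27.99 FPKM in the CBD samples. ATP6V0A1 at 24 h was 24.3, 25.8, 24.9 and 25.1 FPKM in the vehicle samples and 28.9, 27.2, 27.1 and 25.8 FPKM in the CBD samples. CBD stayed above vehicle, with log2 fold changes of 0.16 at 12 h (adjusted p = 0.00124) and 0.12 at 24 h (adjusted p = 0.00602). The 24 h call was lost without vehicle replicate 1, 3 or 4 or CBD replicate 1, 2 or 3 (adjusted p = 0.0115 to 0.0371) and under median-ratio scaling (adjusted p = 0.0293), whereas the 12 h call held under every alternative that was run.

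ATP6V0D1 (hg19, chr16:67471917-67515084, minus strand), subunit d that joins the rotor of V1 to V0, went the other way. ATP6V0D1 at 3 h was 43.9, 46.2, 44.4 and 44.3 FPKM in the vehicle samples and 49.1, 44.7, 42.3 and 41.3 FPKM in the CBD samples. ATP6V0D1 at 6 h was 43.3, 43.7, 40.9 and 41.01 FPKM in the vehicle samples and 43.4, 43.7, 42.00 and 38.9 FPKM in the CBD samples. No separation was seen at these times. ATP6V0D1 at 12 h was 40.9, 38.2, 37.4 and 35.1 FPKM in the vehicle samples and 36.2, 37.9, 35.1 and 35.4 FPKM in the CBD samples. ATP6V0D1 at 24 h was 29.1, 31.5, 31.2 and 29.95 FPKM in the vehicle samples and 27.00, 28.7, 27.2 and 26.6 FPKM in the CBD samples. At 24 h all CBD samples were below vehicle (-0.15, SE 0.0464, adjusted p = 0.00872), a call lost without vehicle replicate 2, 3 or 4 or CBD replicate 1, 3 or 4 (adjusted p = 0.0134 to 0.0321) and after adding relative depth to the model (adjusted p = 0.0182). The 3 remaining V0 subunits did not pass at any time in the main fit. At 24 h their log2 fold changes were 0.11 for ATP6V0B, -0.12 for ATP6V0C and -0.066 for ATP6V0E1, the first a proteolipid of the membrane ring together with ATP6V0C. At 6 h 4 of the 5 V0 estimates were above 0, with a range of -0.0086 to 0.17 and a median of 0.12, and 0 passed. All 4 CBD values of ATP6V0E1 lay above the 4 vehicle values then. The level of ATP6V0B in vehicle at 3 h was 117 ± 8.14 FPKM and that of ATP6V0C was 101 ± 8.61 FPKM (mean ± SD, n = 4). ATP6V0C shares 69.5% of its 50-base words with other annotated genes, so its value is uncertain.

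The V1 sector was described by 8 subunits, of which 2 fell with CBD at 12 h (11.2% of all genes fell) and 3 at 24 h (21.3% of all genes). ATP6V1D (hg19, chr14:67761088-67826982, minus strand) encodes the central shaft of the rotor. ATP6V1D at 3 h was 24.99, 24.1, 25.004 and 25.3 FPKM in the vehicle samples and 23.3, 24.9, 24.6 and 25.9 FPKM in the CBD samples. ATP6V1D at 6 h was 24.5, 23.2, 24.3 and 24.3 FPKM in the vehicle samples and 24.6, 23.3, 22.98 and 25.6 FPKM in the CBD samples. Both early times showed overlapping groups. ATP6V1D at 12 h was 24.8, 24.4, 25.1 and 24.8 FPKM in the vehicle samples and 22.6, 23.01, 22.7 and 22.7 FPKM in the CBD samples. ATP6V1D at 24 h was 23.5, 24.7, 24.7 and 25.3 FPKM in the vehicle samples and 21.4, 21.4, 22.1 and 22.9 FPKM in the CBD samples. CBD samples were all below vehicle at 12 h (-0.12, adjusted p = 0.00404) and at 24 h (-0.16, adjusted p = 9.08e-05). The 12 h call was lost without vehicle replicate 1 or 3 or CBD replicate 1 or 3 (adjusted p = 0.0105 to 0.0146) and after adding relative depth to the model (adjusted p = 0.0103). Vehicle changed by only -0.016 between 3 and 24 h (adjusted p = 0.669).

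ATP6V1B2 (hg19, chr8:20054892-20084330, plus strand) encodes the form of the B subunit found in brain and most tissues, which binds nucleotide beside the catalytic A subunit. ATP6V1B2 at 3 h was 87.9, 85.2, 83.8 and 81.6 FPKM in the vehicle samples and 85.5, 85.2, 82.4 and 82.5 FPKM in the CBD samples. ATP6V1B2 at 6 h was 83.4, 84.1, 82.4 and 83.4 FPKM in the vehicle samples and 80.6, 81.4, 81.9 and 78.1 FPKM in the CBD samples. The CBD samples overlapped vehicle at 3 h and were all lower at 6 h, by a difference that did not pass (-0.050, adjusted p = 0.159). ATP6V1B2 at 12 h was 85.3, 81.6, 80.2 and 79.7 FPKM in the vehicle samples and 73.7, 78.4, 75.2 and 77.7 FPKM in the CBD samples. ATP6V1B2 at 24 h was 70.1, 74.1, 73.8 and 73.6 FPKM in the vehicle samples and 65.8, 66.7, 65.1 and 65.2 FPKM in the CBD samples. CBD was below vehicle without overlap at 12 h (-0.098, adjusted p = 0.00288) and 24 h (-0.15, adjusted p = 1.28e-05). The 12 h call was lost without vehicle replicate 1 or CBD replicate 1 or 3 (adjusted p = 0.0114 to 0.02) and after adding relative depth to the model (adjusted p = 0.0165). ATP6V1G1, a stalk subunit, fell at 24 h by 0.099 (adjusted p = 0.00182), a call lost without vehicle replicate 2 (adjusted p = 0.0102). The catalytic subunit ATP6V1A and the subunits ATP6V1C1, ATP6V1E1, ATP6V1F and ATP6V1H did not pass at any time, with log2 fold changes of -0.045 to 0.023 at 24 h.

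The accessory subunits were ATP6AP1 and ATP6AP2. ATP6AP2, the prorenin receptor (hg19, chrX:40438624-40466100, plus strand), takes part in assembling the pump and had the largest fall of the 15. ATP6AP2 at 3 h was 38.9, 39.6, 37.7 and 38.02 FPKM in the vehicle samples and 35.6, 36.5, 37.5 and 38.1 FPKM in the CBD samples. ATP6AP2 at 6 h was 35.1, 36.8, 36.1 and 36.1 FPKM in the vehicle samples and 34.9, 36.3, 35.4 and 34.9 FPKM in the CBD samples. The groups overlapped at both times. ATP6AP2 at 12 h was 37.4, 34.4, 36.3 and 36.03 FPKM in the vehicle samples and 29.7, 33.2, 31.01 and 34.1 FPKM in the CBD samples. ATP6AP2 at 24 h was 29.9, 31.1, 31.9 and 31.7 FPKM in the vehicle samples and 26.7, 26.5, 26.6 and 26.5 FPKM in the CBD samples. All CBD samples were lower at 12 h (-0.17, adjusted p = 0.000173) and at 24 h (-0.22, SE 0.0314, adjusted p = 1.27e-06). The 12 h call was lost in a fit on the 12 h samples alone (adjusted p = 0.0337). ATP6AP1 did not pass, at -0.036 at 24 h (adjusted p = 0.537).

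**Figure D3:**
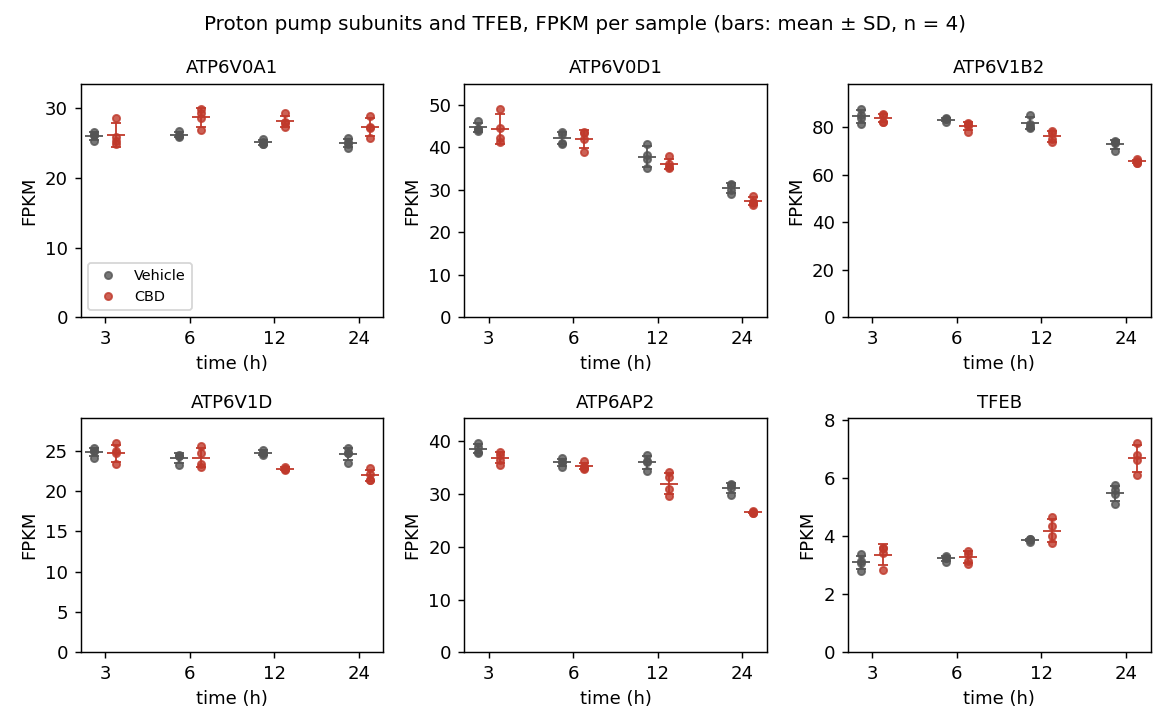
Points are FPKM (vertical axis, from 0) of single samples at 3, 6, 12 and 24 h (horizontal axis, evenly spaced) for 5 pump subunits and TFEB, grey for vehicle and red for CBD, with bars for the mean ± SD of 4 samples. ATP6AP2 fell to 26.5 FPKM with CBD against 31.2 FPKM with vehicle at 24 h, and TFEB was 6.68 against 5.48 FPKM.

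TFEB (hg19, chr6:41651716-41703997, minus strand) had a low level that rose with time in vehicle. TFEB at 3 h was 3.14, 3.37, 3.07 and 2.81 FPKM in the vehicle samples and 3.61, 3.44, 3.58 and 2.83 FPKM in the CBD samples. TFEB at 6 h was 3.25, 3.33, 3.12 and 3.24 FPKM in the vehicle samples and 3.40, 3.49, 3.16 and 3.05 FPKM in the CBD samples. CBD and vehicle overlapped at both times. TFEB at 12 h was 3.89, 3.82, 3.92 and 3.86 FPKM in the vehicle samples and 4.00, 4.66, 4.34 and 3.77 FPKM in the CBD samples. TFEB at 24 h was 5.75, 5.59, 5.12 and 5.45 FPKM in the vehicle samples and 6.63, 6.79, 7.20 and 6.10 FPKM in the CBD samples. The groups overlapped at 12 h and were apart at 24 h, with CBD higher by 0.25 (SE 0.0552, adjusted p = 0.000527). In vehicle it rose by 0.66 from 3 to 24 h (adjusted p = 6.78e-11), and the effect of CBD at 24 h did not pass a test against that at 3 h (0.16, adjusted p = 0.114). These are levels of TFEB mRNA, and the place of the protein in the cell, on which its activity turns, was not measured here. Of the 7 members with TCACGTGA in the promoter, ATP6V0D1 and ATP6V1G1 were lower with CBD at 24 h, where 21.3% of all tested genes were lower. Both calls were lost under some alternatives, as given above. The other 5 did not pass, with log2 fold changes of -0.054 for CTSA, -0.046 for LAMP1, 0.049 for CLN3, 0.056 for MCOLN1 and 0.11 for GAA.

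Most of the 15 pump subunits fell with time in vehicle alone, a comparison that shares its 24 h vehicle samples with the comparison of CBD and vehicle at 24 h. Between 3 and 24 h of vehicle 30 of the 44 members passed the test (57.8% of all genes did), 6 higher (26.6% of all genes) and 24 lower (31.1%). Of the 15 pump subunits 12 fell, or 80%, and 0 rose. All 15 estimates were below 0, with a median log2 fold change of -0.23 against -0.013 for all tested genes. The 13 further pump and pump assembly genes, a list described below, were mixed. Of those, 5 rose and 5 fell in this comparison, with a median of 0.061. Their estimates ran from -0.65 to 0.32, and the largest fall that passed was that of VMA21. Among the 15 subunits ATP6V0D1 fell most, by 0.54 (adjusted p = 1.12e-10), from 44.7 ± 1.00 to 30.4 ± 1.14 FPKM (mean ± SD, n = 4), followed by ATP6V0C at -0.47 and ATP6V0B at -0.41. ATP6V0A1 (-0.057), ATP6V1D (-0.016) and ATP6V1F (-0.0042) did not pass. Under quantile normalization the pump median was -0.15, and 11 of the 15 were lower, ATP6V1E1 no longer passing (adjusted p = 0.0711).

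The 28 hydrolases, helpers and membrane proteins were more mixed with time, with 5 higher, 12 lower and a median of -0.086. GAA, the glycogen-degrading glucosidase of Pompe disease, rose by 0.50 (adjusted p = 2.49e-08), from 20.3 ± 1.41 to 28.9 ± 1.37 FPKM, and MAN2B1, lysosomal alpha-mannosidase, rose by 0.21 (adjusted p = 0.000145). ARSB, arylsulfatase B, had the largest fall, by 0.61 (adjusted p = 5.79e-14), from 4.52 ± 0.230 to 2.62 ± 0.101 FPKM, and SMPD1 fell by 0.48 (adjusted p = 8.06e-09). CTSA, protective protein, which shields NEU1 and GLB1, fell by 0.43 (adjusted p = 5.65e-11). Of the genes with TCACGTGA in the promoter, GAA rose with time, and LAMP1, CTSA, ATP6V0D1, CLN3 (-0.27), MCOLN1 (-0.22) and ATP6V1G1 (-0.22) fell. Among all tested genes 26.6% rose and 31.1% fell. No wells without ethanol were analysed here, so time after plating and time in ethanol cannot be told apart.

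**Figure D4:**
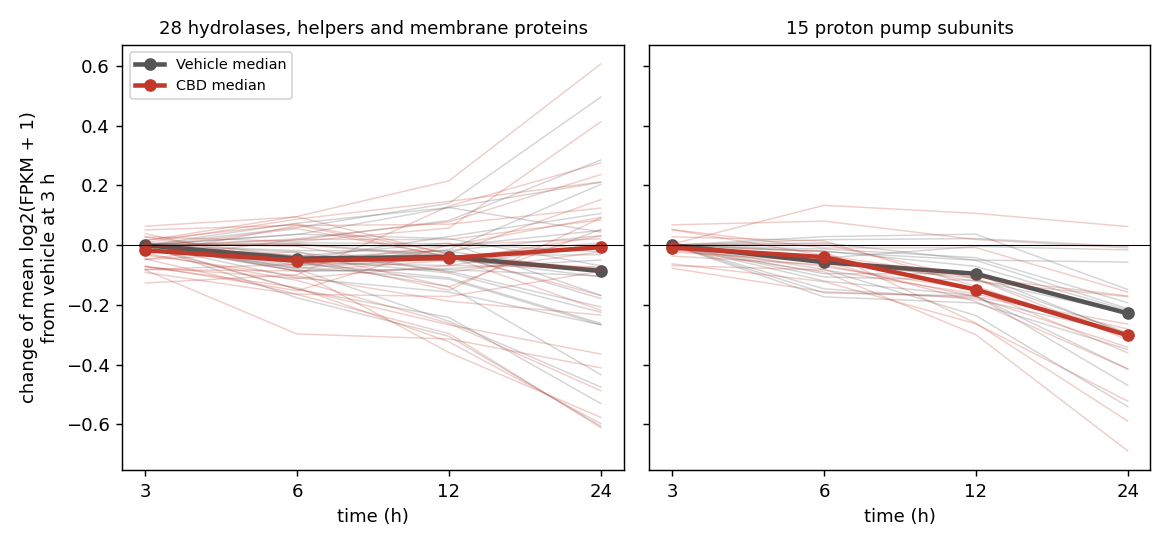
Thin lines give, for each member, the change of mean log2(FPKM + 1) from vehicle at 3 h (vertical axis) at 3, 6, 12 and 24 h (horizontal axis, evenly spaced), grey for vehicle and red for CBD, and thick lines the median over 28 hydrolases, helpers and membrane proteins (left) or 15 pump subunits (right). The pump median at 24 h was -0.23 in vehicle and -0.30 with CBD, and that of the other group was -0.086 and -0.0067.

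The effect of CBD at 24 h was compared with its effect at 3 h in the same model. It differed for 10 of the 44 members (27.2% of all genes passed), 5 upwards (12.9% of all genes) and 5 downwards (14.3%). Upwards were LIPA, NEU1 (0.27, adjusted p = 0.000645), ASAH1 (0.26, adjusted p = 8.15e-05), LAMP2 (0.21, adjusted p = 2.7e-05) and IDS (0.18, adjusted p = 0.000837). Downwards were SCARB2 (-0.15, adjusted p = 0.00019), PPT1 (-0.098, adjusted p = 0.00604) and the pump genes ATP6AP2 (-0.16, adjusted p = 0.00528), ATP6V1D (-0.15, adjusted p = 0.00693) and ATP6V1B2 (-0.14, adjusted p = 0.00277). The 5 upward differences and that of SCARB2 held under every alternative. Under quantile normalization 0 of the 3 pump differences and not that of PPT1 passed (adjusted p = 0.118 for ATP6V1B2, 0.0243 for ATP6AP2, 0.0164 for ATP6V1D and 0.0668 for PPT1). Those of PPT1, ATP6AP2 and ATP6V1D were also lost when single libraries were left out, in 8, 6 and 10 cases, with adjusted p values of 0.011 to 0.0186, 0.0114 to 0.0137 and 0.0103 to 0.0197.

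Other lysosomal genes, taken from lists by role, give the setting of these members at 24 h. Those lists too were drawn up with earlier results of these data known. In all tested genes 20.8% rose and 21.3% fell at that time. Of 19 further hydrolases tested 9 rose and 4 fell, the largest rise being that of CTSH, an aminopeptidase cathepsin (0.45, adjusted p = 4.19e-08). Of 15 further membrane and lumen proteins 6 rose and 2 fell, led by NPC2, which takes up the cholesterol that LIPA frees (0.55, adjusted p = 4.92e-07), and by HGSNAT, the acetyltransferase of heparan sulfate breakdown (-0.33, adjusted p = 3.05e-08). Of 13 further pump and pump assembly genes 0 rose and 1 fell, TMEM199, a pump assembly factor (-0.28, adjusted p = 7.66e-08). In that list ATP6V0A2, another form of subunit a, rose at 6 h by 0.32 (adjusted p = 2.18e-08) and at 12 h by 0.24. The assembly factor VMA21 was lower at 3 h by a log2 fold change of -0.15 (adjusted p = 0.00339). Of 9 genes of the mannose 6-phosphate route that brings hydrolases to lysosomes 0 rose and 3 fell, with NAGPA, the uncovering enzyme, at -0.26 (adjusted p = 0.000891). Of 18 genes that govern TFEB at the lysosome through mTORC1 and the Rag GTPases 5 rose and 6 fell, led by FLCN (0.26, adjusted p = 4.02e-06) and RRAGB (-0.28, adjusted p = 1.12e-06).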

How the data were processed

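The authors deposited a table of FPKM per gene and sample, made with Tophat on hg19 after trimming with Trimmomatic (0.36) and quantified with Cufflinks, with no replicates pooled. The annotation they used is not given in the sources used here. The labels name a Nugen kit and the methods TruSEQ for the 50-base single reads. A second deposited table holds the authors' own Cuffdiff comparisons (fold changes, p-values) and was not used. Of the columns of per-sample values, all belonged to the 32 samples.

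FPKM were taken as log2(FPKM + 1), and genes with a mean under 1 FPKM were left out. One limma (3.58.1, R 4.3.3) model of 8 group means with a mean-variance trend gave every comparison, with Benjamini-Hochberg adjustment over the 12621 tested genes and a threshold of 0.01. The script was tested on simulated data. Depth could not be read as counts, so no counting interval is given. Relative depth is the inverse of the ratio of the smallest nonzero values between samples, over 1414 genes, so smaller such values stand for greater depth. Alternatives were a pseudocount of 0.1, no filter, median-ratio scaling, quantile normalization, a fit on each comparison's own samples alone, a replicate block and leaving out each sample, and, added after seeing the data, relative depth as a term. Positions and shared 50-base words come from the GENCODE v44lift37 annotation of GRCh37, and promoters from RefSeq on GRCh38.p14. Figures were drawn with matplotlib (3.10.9).

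The members and all gene lists were chosen with earlier results of these data known. Every member is named. Given in every sample were, for the pump and for the other members separately, up to 4 members with the largest rise and 4 with the largest fall among those that passed, with TFEB, LAMP1 and any member whose direction turned, and for each further list the largest rise and fall that passed. The largest fall among the further hydrolases is not reported here.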

Additional observations from a re-analysis of the deposited data

Results flagged for a closer look

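Of 128 checks of 4 samples each, 3 found a sample far from the other 3 of its group, where chance gives about 1 in 20. ASAH1 in CBD replicate 4 at 6 h was 22.1 FPKM, with the others at 20.7 to 20.8 FPKM. ATP6V1D in vehicle replicate 2 at 6 h was 23.2 FPKM, with the others at 24.3 to 24.5 FPKM. ATP6V1B2 in vehicle replicate 1 at 24 h was 70.1 FPKM, with the others at 73.6 to 74.1 FPKM. Only the last lay in a comparison that passed the test for that gene, and the call for ATP6V1B2 at 24 h held under every alternative that was run.

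For 10 of the 44 members (22.7%) the response to CBD at 24 h was unlike that at 3 h by a test of the difference itself. Of all tested genes 27.2% passed that test. On the log2 scale the effect at 24 h minus that at 3 h was 0.49 for LIPA, 0.27 for NEU1, 0.26 for ASAH1, 0.21 for LAMP2 and 0.18 for IDS. It was -0.16 for ATP6AP2, -0.15 for ATP6V1D, -0.15 for SCARB2, -0.14 for ATP6V1B2 and -0.098 for PPT1. The calls of ATP6AP2, ATP6V1D, ATP6V1B2 and PPT1 were lost under some alternatives, and the other 6 held under every one.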

How the results depend on the processing

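No called difference of a member changed direction under any alternative. Of the calls, 2 of 5 at 6 h, 5 of 11 at 12 h, 13 of 18 at 24 h, 6 of 10 between the effects at 24 and 3 h and 28 of 30 between vehicle times held under every one. The hydrolases and membrane proteins called at 6 h numbered 5, against 3 with no filter on low values and 2 in a fit on the 6 h samples alone. At 12 h they numbered 7, against 4 in a fit on the 12 h samples alone. The pump subunits called at 12 h numbered 4, against 2 in such a fit and 2 with relative depth as a term, and at 6 h they numbered 0, against 1 under quantile normalization. The causes were not tested. Beside the lost calls given with the results above, quantile normalization ended those of LAMP1 (adjusted p = 0.0113) and ATP6V1B2 (0.0142) at 12 h and ATP6V1G1 (0.0104) at 24 h. Fits on own samples alone ended those of ATP6V1B2 (0.0381), LAMP1 (0.0187) and CTSB (0.0105) at 12 h and of GM2A (0.0236), ATP6V0A1 (0.021) and ATP6V1G1 (0.0172) at 24 h, and also of IDS at 6 h (0.0583), GM2A between vehicle times (0.0173) and the differing effects of PPT1 (0.0143) and ATP6V1D (0.0192). With no filter IDS at 6 h (0.0145), ATP6V0D1 (0.0132) and GM2A (0.0122) at 24 h and the differing effect of ATP6V1D (0.0101) were lost. With single samples left out, the hydrolases and membrane proteins called ranged from 0 to 1 at 3 h (1 without vehicle replicate 4), 3 to 5 at 6 h (3 without vehicle replicate 1, 3 or 4 or CBD replicate 1 or 3), 5 to 8 at 12 h and 10 to 12 at 24 h. The pump subunits ranged from 0 to 2 at 6 h (2 without CBD replicate 4), 2 to 4 at 12 h (2 without vehicle replicate 1 or CBD replicate 1 or 3) and 4 to 5 at 24 h. The differing effects ranged from 7 to 13 and the vehicle calls from 30 to 32. With a replicate block 1 pump subunit was called at 6 h instead of 0, and no other count of members moved by over 1.5 times. Same-numbered samples of the same time did not deviate together, with 16 correlations of -0.076 to 0.094 and none over 0.1. Of the 16 pairs, 5 were the best match of their number. Yet the replicate block raised the number of calls over all tested genes in every comparison. The main model called 310 genes for CBD against vehicle at 3 h and the block 447, and between vehicle times 7293 became 7545. Whether replicate numbers carry variation shared across groups was not tested. Over all tested genes, the fit on own samples alone called 29 genes at 3 h and 425 at 6 h, against 310 and 1288. FPKM without counts leave the precision of low genes such as ARSA, GM2A and SMPD1 unknown beyond the spread of 4 wells.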
